A study of Homo sapiens with 6 samples.

Results

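The genes described here handle protons and bicarbonate, and 8 of the 58735 genes in the deposited count table were taken by name. They are the sodium-proton exchanger gene *SLC9A8*, the bicarbonate transporter genes *SLC4A2* and *SLC4A7*, the carbonic anhydrase genes *CA2*, *CA9* and *CA12*, the voltage-gated proton channel gene *HVCN1* and the acid-sensing ion channel gene *ASIC1*. They were measured by RNA sequencing of polyadenylated RNA in OE33, an established cell line from a human adenocarcinoma of the esophagus. In the treated group, cells spent 20 min in unsupplemented medium at pH 4.0 with 200 µM of a bile salt mixture (acidified bile salts, ABS), and then recovered in complete medium for 6 h. The control group was left untreated, and each group had 3 libraries labelled as independent biological replicates. Both groups came from the same line, grown in RPMI1640 with serum. The series has no library from cells that met only the acid or only the bile salts among those used here. Nor does any come from cells that met only the unsupplemented medium and the return to complete medium. These parts of the exposure therefore cannot be told apart.

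Cells that meet acid at their surface keep their cytosol near neutral by exporting protons and by moving bicarbonate. Sodium-proton exchangers and sodium-coupled bicarbonate transporters counter an acid load, chloride-bicarbonate exchangers commonly export bicarbonate and so counter an alkaline one, and carbonic anhydrases speed the interconversion of carbon dioxide and bicarbonate on both sides of the membrane. In the esophagus, these systems are known as part of the epithelium's defence against reflux.

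Library totals lay between 22145676 and 25235686 counts. All 5 epithelial markers examined, *EPCAM*, *CDH1*, *KRT8*, *KRT18* and *KRT19*, were strongly expressed, with summed levels of 17250 to 20130 CPM (counts scaled to library size with TMM, a trimmed mean of ratios) in control and 18080 to 18970 CPM in ABS libraries. Squamous basal markers summed to at most 0.785 CPM in any library and endothelial markers to at most 0.274 CPM. Fibroblast markers summed to 2.82 to 3.14 CPM in control and 2.59 to 3.63 CPM in ABS libraries, nearly all from *COL1A1*, and immune markers to 5.37 to 7.23 and 5.59 to 6.37 CPM, from *CD14* and *LYZ*. The defining fibroblast genes *COL1A2* and *DCN* and the leukocyte genes *PTPRC* and *CD3E* had 0 counts in every library. The replicate 3 libraries stood apart. Their scores on the second principal component, which held 25.9% of the variance, were −19.0 (control) and −29.0 (ABS), while the remaining 4 scores lay between 2.73 and 18.5. Results that turn on these libraries are therefore given with and without them. In bulk RNA, fewer cells that express a gene and less RNA per cell cannot be told apart.

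Of the 8 genes, 7 passed the filter on low counts and were tested, and 0 passed the threshold of an adjusted p below 0.05 with edgeR. Over all 13768 tested genes, 60 passed, or 0.436%. *SLC9A8* came closest, with all 3 ABS libraries above all 3 controls, a level 1.26-fold that of control cells and an adjusted p of 0.196. It was also the only one of the 7 with an unadjusted p below 0.05, a share that was 9.75% over all tested genes. The 3 ABS values lay wholly above the 3 control values in 1 of the 7 genes and wholly below in 0, against 7.55% and 6.97% of all tested genes. The median log2 fold change of the 7 genes was 0.15, with 4 positive and 3 negative, against −0.004 over all tested genes. With DESeq2 and with limma-voom 0 of the 7 passed as well, where 1.92% and 0.45% of all tested genes did. Within replicates 1 and 2 alone, 2 passed, *SLC9A8* and *SLC4A7*, where 13.2% of all tested genes did.

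**Figure D1:**
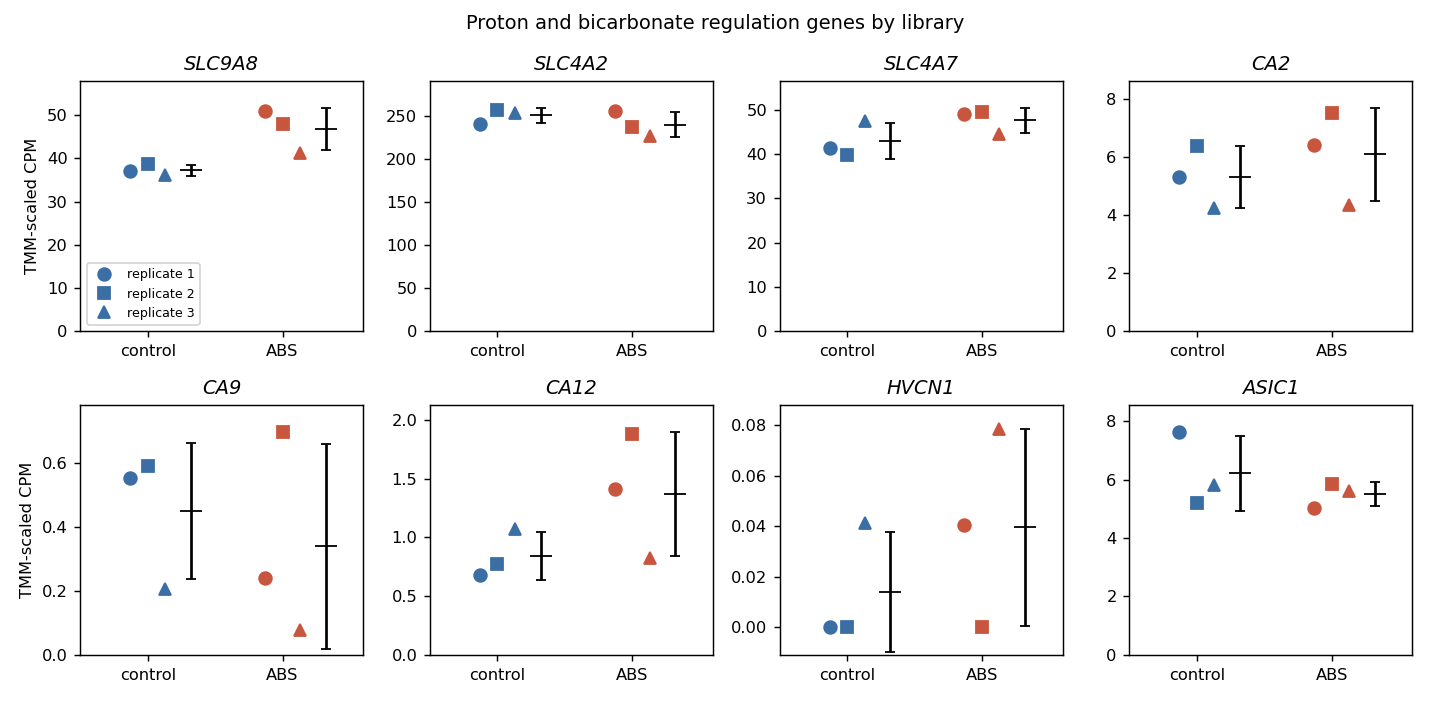
Level of each of the 8 genes in every library, in TMM-scaled CPM, with control libraries in blue, ABS libraries in red and the replicate number as the marker shape. Black bars are group means with the standard deviation (SD) over 3 libraries. The groups are separate only for *SLC9A8*, where ABS libraries lie at 41.4 to 51.0 CPM and controls at 36.1 to 38.6 CPM.

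Compared per kilobase of transcript, the 8 genes spanned a wide range. *SLC4A2* stood highest, at 32.3 ± 1.61 CPM per kilobase (mean ± SD over 6 libraries), above 89.3% of the tested genes. *SLC9A8* followed at 6.05 ± 0.884 and *SLC4A7* at 4.71 ± 0.424 CPM per kilobase, close to the median of the tested genes, 4.42. *CA2* lay at 2.69 ± 0.607 and *ASIC1* at 1.02 ± 0.163 CPM per kilobase. The ranges of these 5 neighbours over the 6 libraries did not overlap, although *SLC9A8* was only 1.28-fold above *SLC4A7* on average. *CA9* and *CA12* were far lower, at 0.236 ± 0.150 and 0.151 ± 0.0631 CPM per kilobase, and their ranges overlapped. *HVCN1* was last, with 4 counts over all 6 libraries together.

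*SLC9A8* (ENSG00000197818, GRCh38 chromosome 20, 49812713 to 49892242, plus strand) encodes NHE8, a sodium-proton exchanger of endomembranes that also reaches the apical surface of epithelial cells. Untreated replicates 1, 2 and 3 held 37.0, 38.6 and 36.1 CPM, and the ABS replicates, in the same order, 51.0, 48.0 and 41.4 CPM. Every ABS library was above every control library, and ABS replicate 3 was the lowest of its group. The group means were 37.2 ± 1.26 and 46.8 ± 4.93 CPM (SD, n = 3 per group). The log2 fold change was 0.33 ± 0.096 (standard error, SE), with a 95% interval of 0.12 to 0.54 and an unadjusted p of 0.00501, at rank 351 of the 13768 genes. After Benjamini-Hochberg adjustment over all genes this became 0.196, short of the threshold.

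The replicate 3 libraries bear on that value. Within replicates 1 and 2 alone the log2 fold change of *SLC9A8* was 0.39 ± 0.090 with an edgeR adjusted p of 0.00318. The replicate 3 pair, with 1 library per group, differed by 0.19 on the log2(CPM + 0.5) scale. The gene also passed without ABS replicate 3 (adjusted p 0.0371) and when the model carried a separate coefficient for replicate 3 (0.0320), and in no other of the 16 alternatives. In these 3 fits 13.2%, 1.94% and 3.38% of all tested genes passed, in the order given. Leaving out libraries because they stand apart lowers the spread between the rest by construction. This applies to the fits within replicates 1 and 2 and without ABS replicate 3. The fit with the separate coefficient left out no library, but its coefficient was for the same libraries.

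**Figure D2:**
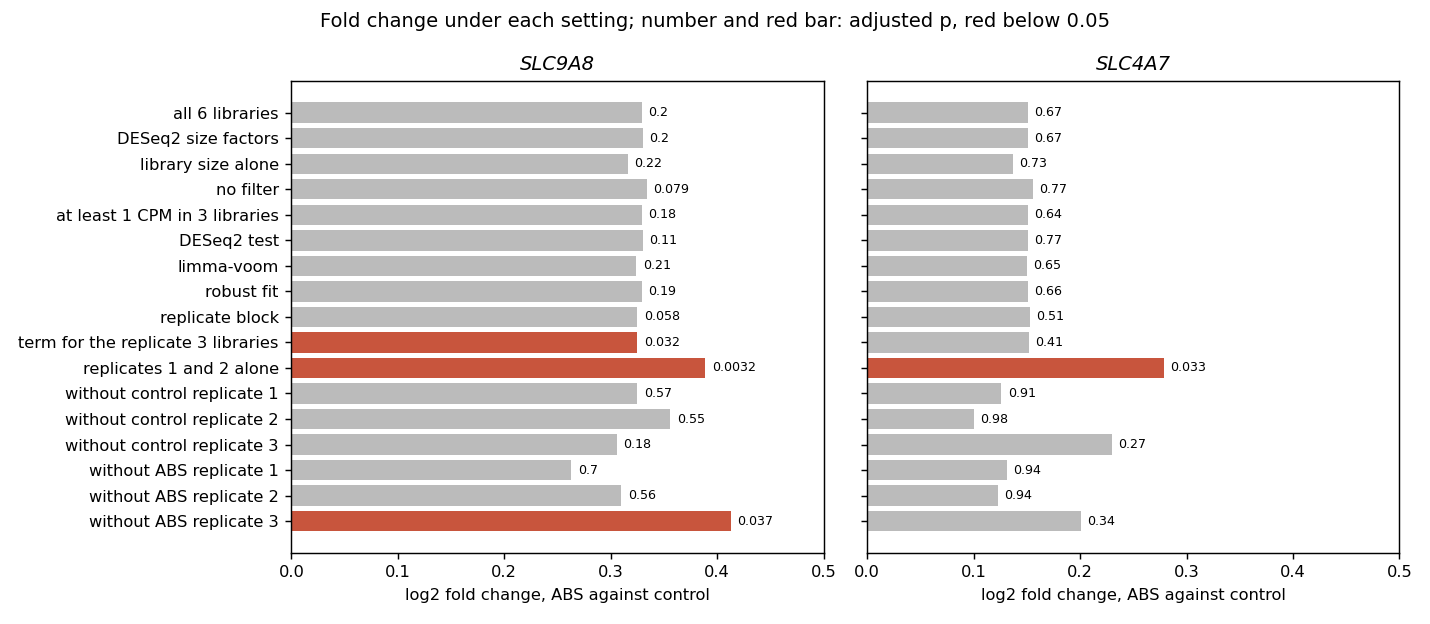
Log2 fold change of *SLC9A8* and *SLC4A7*, ABS against control, in the fit of all 6 libraries and under 16 alternatives, with the adjusted p beside each bar and bars below 0.05 in red. *SLC9A8* keeps a positive value between 0.26 and 0.41 throughout and passes in 3 alternatives, while *SLC4A7* lies between 0.10 and 0.28 and passes in 1.

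The stretches upstream of *SLC9A8* and *SLC4A7* are shown because these were the members that passed within replicates 1 and 2. They come from RefSeq on GRCh38.p14 and stop before the first annotated untranslated base. The 250 bases before each RefSeq start were searched on both strands for ACGTG, the core of the hypoxia response element, for GCGTG, the core bound by the aryl hydrocarbon receptor with its partner ARNT, for the metal response element cores TGCACNC and TGCGCNC, and for the AP-1 motif TGANTCA. Capitals mark matches within the printed stretch. The *SLC9A8* stretch is chr20:49812578-49812712, plus strand, and that of *SLC4A7* is chr3:27484421-27484634, minus strand.
*SLC9A8*: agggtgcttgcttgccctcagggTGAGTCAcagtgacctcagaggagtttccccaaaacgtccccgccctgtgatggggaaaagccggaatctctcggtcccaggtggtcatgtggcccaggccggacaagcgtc
*SLC4A7*: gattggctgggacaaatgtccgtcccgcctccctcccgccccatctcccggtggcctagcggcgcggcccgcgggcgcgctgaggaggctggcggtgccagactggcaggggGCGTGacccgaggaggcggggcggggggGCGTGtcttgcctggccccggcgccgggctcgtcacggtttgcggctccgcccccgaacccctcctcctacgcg
*SLC9A8* held 1 AP-1 match, 227 bases before the start, and 1 GCGTG match on the opposite strand, 79 bases before it and outside the printed stretch. *SLC4A7* held 2 GCGTG matches, 138 and 110 bases before the start, and no match to the other motifs. Of 35116 RefSeq promoters, 6.57% held an AP-1 match, 32.2% a GCGTG match and 18.5% an ACGTG match in the same window. The 2 metal response cores were found in 9.87% (TGCACNC) and 16.8% (TGCGCNC). A match describes these letters only and was not tied to binding.

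By the level pattern over the 6 libraries, the protein-coding genes most like *SLC9A8* among 9720 with a mean of at least 5 CPM were *FBXL5*, *TRAF6* and *CAB39*, with Pearson correlations of 0.989, 0.988 and 0.988 on log2 CPM. These values describe 6 points that share the group difference. *FBXL5*, a subunit of the ubiquitin ligase that senses iron, lay at 38.4 ± 1.15 CPM in control and 49.7 ± 4.10 CPM in ABS cells (SD, n = 3 per group). *TRAF6*, an adaptor of receptor signalling to NF-kB, lay at 14.0 ± 0.347 and 19.0 ± 2.55 CPM. *CAB39*, a scaffold of the kinase LKB1, lay at 227 ± 3.29 and 263 ± 14.8 CPM. Like *SLC9A8*, none of the 3 passed, with edgeR adjusted p of 0.106, 0.178 and 0.274.

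Among its 9-gene SLC9A family, *SLC9A8* took 19.6% to 22% of the summed level per length in control libraries and 22.5% to 26.1% in ABS libraries, ranges that did not overlap. *SLC9A7*, an exchanger of the Golgi, had a similar level per length, 6.77 CPM per kilobase, and a log2 fold change of −0.01 with a 95% interval of −0.18 to 0.15. *SLC9A2*, a plasma membrane exchanger of epithelia, had a log2 fold change of 0.33 with an interval of −0.01 to 0.67 and an adjusted p of 0.537. Its highest control, 11.5 CPM, lay just under its lowest ABS library, 11.6 CPM. Neither difference passed, and the difference between *SLC9A8* and its relatives was not tested.

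*SLC4A2* (ENSG00000164889, chromosome 7, 151057210 to 151076527, plus strand) encodes AE2, a chloride-bicarbonate exchanger found in most epithelia. The 3 controls held 241, 258 and 254 CPM and the 3 ABS libraries 256, 238 and 227 CPM, for means of 251 ± 8.81 and 240 ± 14.6 CPM. The groups overlapped, since ABS replicate 1 lay among the controls. The log2 fold change was −0.06 ± 0.071 with an edgeR adjusted p of 0.851. With 5437 to 6346 counts per library this was the most precisely measured of the 8 genes, and its 95% interval ran from 0.860-fold to 1.07-fold. Exons of *CDK5* on the opposite strand covered 4.36% of its exon bases and those of the antisense gene *AC010973.2* covered 9.41%. As the strand setting of the counting is not given in the sources used here, reads in those stretches could not be assigned with certainty.

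*SLC4A7* (ENSG00000033867, chromosome 3, 27372721 to 27484420, minus strand) encodes NBCn1, an electroneutral sodium-bicarbonate cotransporter that brings base into the cell. Control replicates 1 to 3 held 41.4, 39.8 and 47.6 CPM, and ABS replicates 1 to 3 held 49.0, 49.5 and 44.5 CPM. Control replicate 3 was above ABS replicate 3, whereas both other ABS libraries were above every control. The means were 42.9 ± 4.10 and 47.7 ± 2.79 CPM, and the log2 fold change was 0.15 ± 0.095 with a 95% interval of −0.055 to 0.36 and an adjusted p of 0.668. Within replicates 1 and 2 alone it was 0.28 ± 0.088 with an adjusted p of 0.0326. In the replicate 3 pair the log2 difference had the opposite sign, −0.10. Whether the replicate sets differed was not tested.

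Of the 10 SLC4 genes, *SLC4A2* carried most of the summed level per length, 70.5% to 72.9% in control and 66.9% to 70.3% in ABS libraries. These ranges were just separate, and the difference was not tested. *SLC4A7* took 8.88% to 10.4% and 10.3% to 11.5%. The other SLC4 genes that passed the filter were *SLC4A11*, which encodes a sodium-coupled proton or hydroxide transporter of the family, and *SLC4A3*, a chloride-bicarbonate exchanger. Their log2 fold changes were 0.13 and −0.04 with adjusted p of 0.758 and 0.965. The electrogenic bicarbonate cotransporter gene *SLC4A4* failed the filter, with 8, 5 and 6 counts in controls and 5, 3 and 1 in ABS libraries. On the CPM scale each ABS library was below each control, at 0.202, 0.131 and 0.0392 against 0.340, 0.227 and 0.248 CPM.

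**Figure D3:**
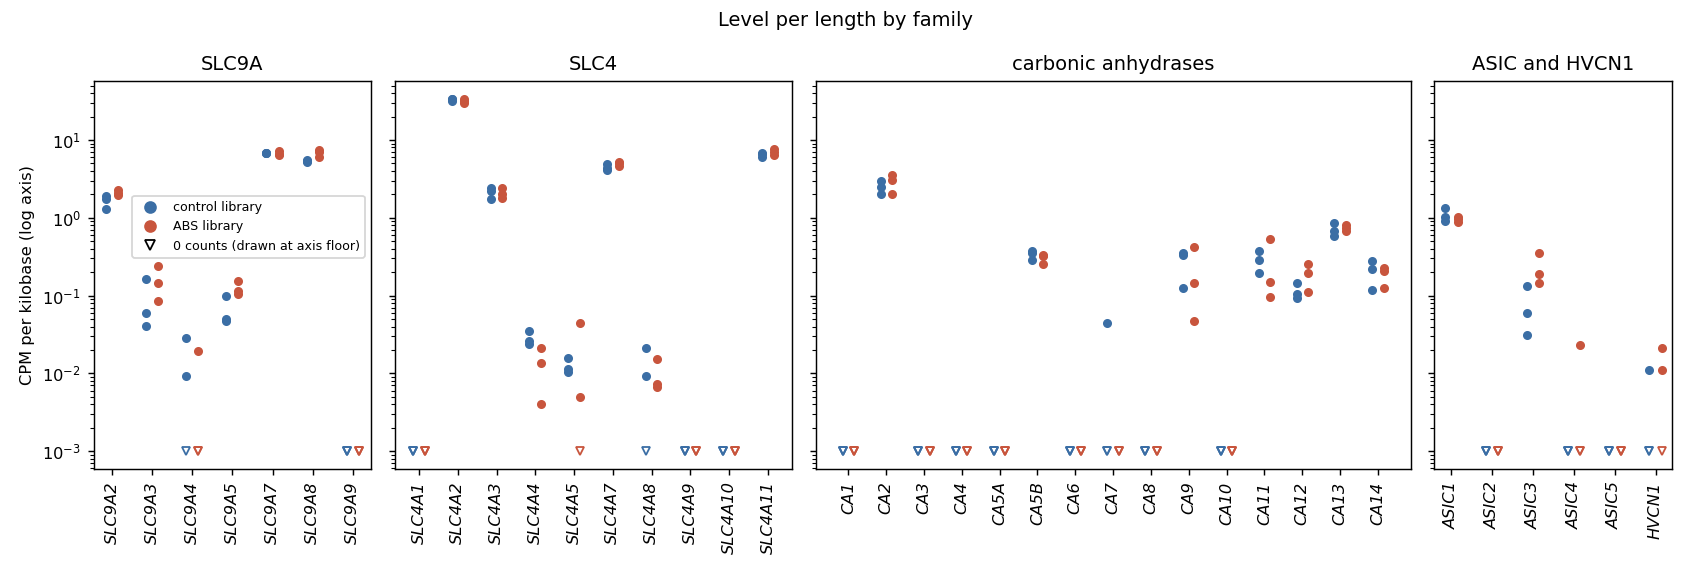
Level per length (CPM per kilobase, log axis) of genes of the SLC9A, SLC4, carbonic anhydrase and ASIC families and of *HVCN1* in the 3 control (blue) and 3 ABS (red) libraries, with open triangles at the axis floor for libraries with 0 counts. *SLC4A2* is the highest gene shown in every library, *CA2* leads the carbonic anhydrases and *ASIC1* the ASIC genes.

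*CA2* (ENSG00000104267, chromosome 8, 85463852 to 85481493, plus strand) encodes a fast cytosolic carbonic anhydrase. Its controls held 5.31, 6.37 and 4.26 CPM, and its ABS libraries 6.41, 7.51 and 4.35 CPM. In both groups replicate 3 was the lowest, and the groups overlapped. The means were 5.31 ± 1.06 and 6.09 ± 1.61 CPM (SD, n = 3 per group). The log2 fold change was 0.20 ± 0.23 with an adjusted p of 0.854, and the 95% interval ran from 0.809-fold to 1.63-fold. Without ABS replicate 2 the log2 fold change was 0.02, and without ABS replicate 3 it was 0.39 (adjusted p 0.401).

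*CA9* (ENSG00000107159, chromosome 9, 35673856 to 35681159, plus strand) encodes a membrane-bound carbonic anhydrase with its active site outside the cell, and is a textbook target of hypoxia-inducible factor. Controls had 13, 13 and 5 counts and ABS libraries 6, 16 and 2, or 0.552, 0.591 and 0.207 CPM against 0.242, 0.699 and 0.0784 CPM. Replicate 3 was the lowest library of each group, as for *CA2*, and ABS replicate 2 was the highest of all 6. The log2 fold change was −0.42 ± 0.73 with an adjusted p of 0.918, and the 95% interval, 0.250-fold to 2.24-fold, left a rise and a fall of more than 2-fold within it. Exons of *ARHGEF39* on the opposite strand, with 2630 counts in all, covered 38.5% of the *CA9* exon bases. Without a stated strand setting, the 55 counts of *CA9* are therefore uncertain.

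The hypoxia response element of *CA9* is shown because it is the classic regulatory sequence of this gene group. It falls within the 30 bases before the RefSeq start (chr9:35673898-35673927, plus strand, GRCh38.p14), inside the gene as counted, with the ACGTG core read on the opposite strand in capitals, 18 bases before the start.
*CA9*: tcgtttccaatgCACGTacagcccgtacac
The window of 250 bases also held 1 TGCACNC match, 190 bases before the start, and 1 AP-1 match, 77 bases before it. The *CA9* means were 0.450 ± 0.212 CPM in control and 0.340 ± 0.322 CPM in ABS cells, and ABS replicate 3 lay below the 0.118 CPM that 3 counts give in that library.

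*CA12* (ENSG00000074410, chromosome 15, 63321378 to 63382161, minus strand) encodes another membrane-bound carbonic anhydrase facing outwards. Controls had 16, 17 and 26 counts and ABS libraries 35, 43 and 21, or 0.680, 0.773 and 1.07 CPM against 1.41, 1.88 and 0.823 CPM. ABS replicates 1 and 2 were above every control, while ABS replicate 3 lay among the controls. The log2 fold change, 0.69 ± 0.44, was the largest of the 7 in size, with a 95% interval of −0.26 to 1.64 and an adjusted p of 0.669. Within replicates 1 and 2 alone it was 1.17 ± 0.53 with an adjusted p of 0.157. It lay between 0.40 and 0.96 in the fits that left out a single library.

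*CA2* took 50.9% to 62.3% of the summed level per length of 15 carbonic anhydrase and related genes in control libraries and 51.7% to 64% in ABS libraries. *CA13*, a further cytosolic form, had a log2 fold change of 0.06, and *CA5B*, a mitochondrial form, one of −0.16. *CA14*, a membrane-bound form, had −0.16, and *CA11*, a related protein without catalytic activity, had −0.15. Their adjusted p lay between 0.905 and 0.970. The genes *CA1*, *CA3*, *CA4*, *CA5A*, *CA6*, *CA8* and *CA10* had 0 counts in every library.

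*ASIC1* (ENSG00000110881, chromosome 12, 50057548 to 50083611, plus strand) encodes a cation channel that opens when extracellular protons bind. The controls held 7.65, 5.18 and 5.83 CPM, and the ABS libraries 5.04, 5.85 and 5.61 CPM. Control replicate 1 was the highest library, and the other controls lay within the range of the ABS group. The means were 6.22 ± 1.28 and 5.50 ± 0.418 CPM, with a log2 fold change of −0.18 ± 0.19, a 95% interval of 0.661-fold to 1.18-fold and an adjusted p of 0.838. *ASIC1* took 87.2% to 97.7% of the summed level per length of the 5 ASIC genes in control libraries and 73.2% to 87.7% in ABS libraries. These ranges overlapped slightly, and the difference was not tested. Most of the remainder was *ASIC3*, another gene of the family, at 2.27% to 12.8% and 12.3% to 26.8%. Those *ASIC3* shares rest on at most 25 counts in a library.

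*HVCN1* (ENSG00000122986, chromosome 12, 110627841 to 110704950, minus strand) encodes a voltage-gated channel that lets protons out of the cell and is best known in immune cells. Controls had 0, 0 and 1 counts and ABS libraries 1, 0 and 2, and the gene was not tested. Counts this low do not separate the groups. In the libraries with 0 counts, the limit that a count of 0 allows, 3 counts, corresponded to 0.127 CPM in control replicate 1, 0.136 CPM in control replicate 2 and 0.131 CPM in ABS replicate 2. Exons of *TCTN1* on the opposite strand covered 17.2% of its exon bases.

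The wider pathway was read from a list of 68 further genes for proton exchange, bicarbonate transport, carbon dioxide hydration and acid sensing. Of these, 27 passed the filter and 21 had 0 counts in every library. With edgeR, DESeq2 and limma-voom 0 of the 27 passed, where 0.436%, 1.92% and 0.45% of all tested genes did, shares so low that a count of 0 among 27 genes does not set the list apart. An unadjusted edgeR p below 0.05 was reached by 0 of the 27, against 9.75% of all tested genes. Of the 27, 11 log2 fold changes were positive and 16 negative, with a median of −0.015. In 3 of the 27, *SLC9A2*, *SLC9A5* and *TMEM206*, every ABS library was above every control, and in 0 every ABS library was below, against 7.55% and 6.97% of all tested genes.

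Among acid sensors, *TMEM206*, which encodes the proton-activated chloride channel, lay at 16.6 ± 0.523 CPM in control and 19.3 ± 0.727 CPM in ABS cells, as mean ± SD of 3 libraries. The log2 fold change of 0.22 had a 95% interval of −0.01 to 0.45 and an adjusted p of 0.546. *TRPV1*, the capsaicin receptor, which acid also opens, had a log2 fold change of 1.24 with an interval of −0.11 to 2.58, at 0.337 ± 0.216 and 0.806 ± 0.368 CPM. The lysosomal proton channel gene *TMEM175* had a log2 fold change of −0.10. The proton-sensing receptor genes *GPR4*, *GPR65* and *GPR132* and all 3 proton-potassium pump genes failed the filter.

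The anion exchanger genes *SLC26A11* and *SLC26A1* had log2 fold changes of −0.21 and −0.19. The exchanger scaffold *SLC9A3R2* and the bicarbonate transport regulator *AHCYL1* were abundant, and their log2 fold changes were −0.015 and −0.02 with 95% intervals of −0.18 to 0.15 and −0.18 to 0.14. For *SLC9B2*, a distant sodium-proton antiporter, the value was −0.02. Adjusted p lay between 0.718 and 0.983 for these 5 genes.

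**Figure D4:**
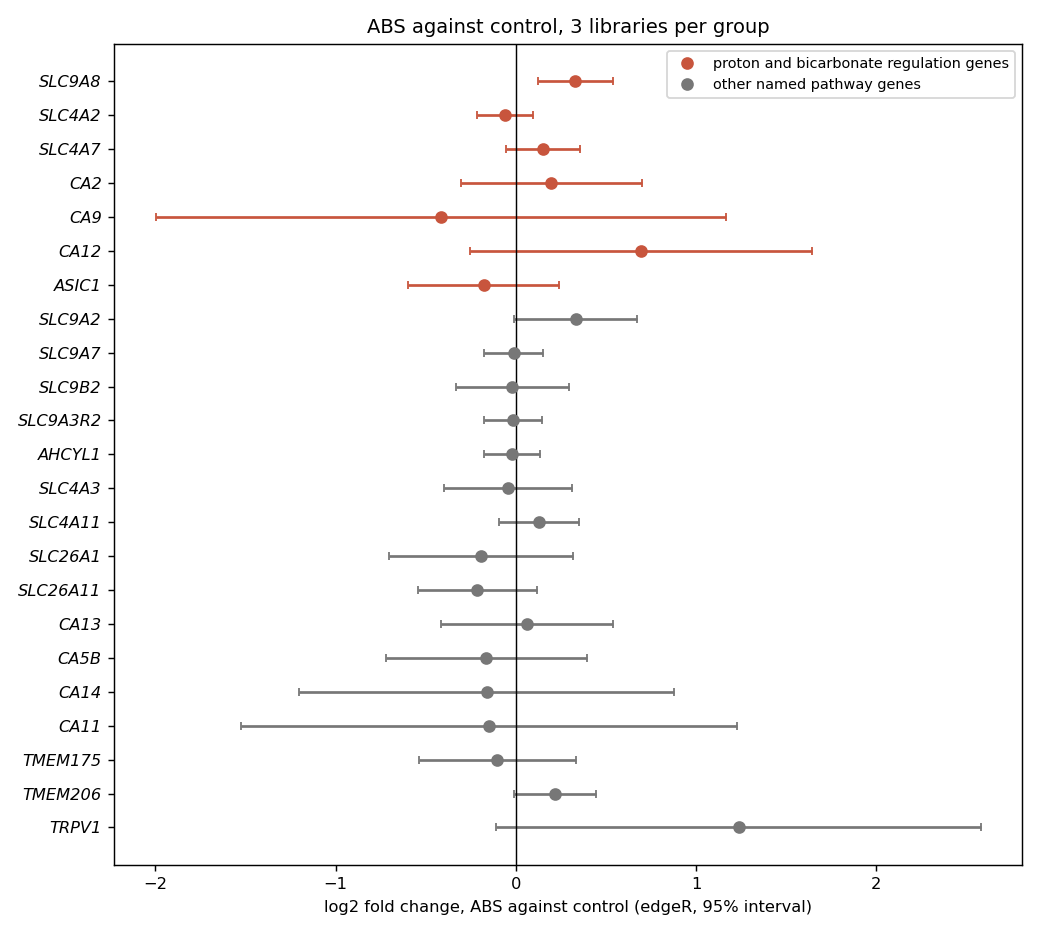
Log2 fold change of ABS against control with its 95% interval for the 7 tested members (red) and 16 other genes of the pathway (grey), from the edgeR fit of 3 libraries per group. The interval of *SLC9A8*, 0.12 to 0.54 before any adjustment for the number of genes, lies wholly above 0, and every other interval crosses 0.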

How the data were processed

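Per the submitters' processing notes, reads were handled with HISAT2 2.0.5 and featureCounts 1.5.0-p3 on GRCh38. The annotation, strand setting and treatment of multiply mapped reads are not given in the sources used here. All 58735 gene identifiers had the same coordinates in GENCODE release 29. The authors deposited raw counts per gene, 1 column per library. Reads carried no molecular identifiers that the labels mention, so limits cover counting error only.

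From these counts, edgeR 4.0.16 in R 4.3.3 compared ABS with control by a quasi-likelihood F-test with group as the only term, after filterByExpr (minimum count 10, minimum total 15) and TMM scaling (trimmed mean of M values). Benjamini-Hochberg adjustment ran over every gene in the fit, and 0.05 was the limit. The SE was the log2 fold change divided by the square root of F, and 95% intervals used the test's degrees of freedom. CPM are TMM-scaled, and CPM per kilobase divide them by the deposited gene length. The procedure was also run on simulated counts with known fold changes. Those counts held no shift shared by libraries of the same replicate number, so that run does not bear on such a shift. Alternatives used DESeq2 1.42.0, limma 3.58.1, other scalings and filters, a replicate block, and fits without libraries.

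The 8 genes and the pathway list were chosen with earlier results of these data known. All 8 were named. In each subfamily of the list, genes past the threshold and up to 2 others with the highest level per length were named, and so were the 3 genes most correlated with the member of smallest p. *SLC9A5*, *SLC4A4*, *ASIC3* and genes at 0 were named after their values were seen. Some genes of the list are not reported here. Promoter sequences are from RefSeq, where 6 of the 8 genes had an entry.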

Additional observations from a re-analysis of the deposited data

How the results depend on the processing

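The number of tested genes past the threshold, 60, became 409 without a filter, 35 when scaled by library size alone, 264 with DESeq2, 465 with a term for replicate 3 and 1813 within replicates 1 and 2, and lay between 12 and 438 when single libraries were left out. Of the 8 genes, 0 passed in 13 of the 16 alternatives, 1 with the term for replicate 3, 2 within replicates 1 and 2, and between 0 and 1 when single libraries were left out, the 1 being *SLC9A8* without ABS replicate 3. Of the 68 further pathway genes, 0 passed in every alternative run. With the replicate number as a block, 350 genes passed and 0 of the 8, with *SLC9A8* at an adjusted p of 0.0575. The deviations of same-numbered libraries from their group means correlated at 0.043, 0.033 and 0.167. Control replicate 1 correlated best with ABS replicate 2, so the numbers were not taken as pairs. The replicate 3 libraries were nonetheless alike, as 0.167 was the highest of any control and ABS pairing. Their chi-square per degree of freedom, lower when closer, was 7.14. From control replicate 3 to the other controls it was 19.1 and 19.0. From ABS replicate 3 to the other ABS libraries it was 14.7 and 17.9. The main fit, with group as its only term, left this shared part in the spread.

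Some signs turned. With replicates 1 and 2 only, *SLC9A7* had a log2 fold change of 0.035. When single libraries were left out, the log2 fold change ranged from −1.46 to 0.061 for *CA9*, −0.061 to 0.031 for *SLC9A7*, −0.091 to 0.058 for *SLC9B2*, −0.08 to 0.019 for *SLC9A3R2*, −0.061 to 0.016 for *AHCYL1*, −0.166 to 0.051 for *SLC4A3*, −0.527 to 0.012 for *SLC26A1*, −0.057 to 0.217 for *CA13*, −0.434 to 0.117 for *CA14*, −1.225 to 0.24 for *CA11* and −0.309 to 0.077 for *TMEM175*. The cause was not tested. *CA9* turned positive only without ABS replicate 3. *CA9*, *CA12* and *HVCN1* are limited by depth, with at most 43 counts in a library.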

Other observations

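Of the 68 further pathway genes, 27 passed the filter and 21 had 0 counts in every library. Among the rest, which failed the filter but had counts, 2 had groups that did not overlap, *ASIC3* upward and *SLC4A4* downward. Groups did not overlap in 14.5% of all tested genes, a share that leaves out genes that failed the filter, as these 2 did. No share was computed over the genes that failed it. Separate groups alone were therefore not taken to set these 2 genes apart. *ASIC3*, which encodes a proton-gated cation channel of the same family as *ASIC1*, was, like *SLC4A4*, chosen after its values were seen. It had 2, 8 and 4 counts in controls and 13, 9 and 25 in ABS libraries, or 0.0850, 0.364 and 0.165 CPM against 0.524, 0.393 and 0.980 CPM. Every ABS library was above every control, although ABS replicate 2 and control replicate 2 differed by 1 count. The edgeR fit without a filter gave a log2 fold change of 1.62 ± 0.785 (SE), an unadjusted p of 0.0388 and an adjusted p of 0.626. The exact permutation test of its CPM, two-sided, gave p = 0.1, the smallest that 3 libraries against 3 allow. Groups that do not overlap always give this value, so the choice of the gene fixed the outcome and the test adds no support. The unadjusted p of the fit also rests on the values that led to the choice. No exon of another gene overlapped it in GENCODE release 29. For *SLC4A4*, with 19 counts in the controls together and 9 in the ABS libraries, the same fit gave −1.10 ± 1.194 (SE), an unadjusted p of 0.357 and an adjusted p of 0.78. Its exact permutation test, two-sided, also gave p = 0.1, a value fixed in the same way by the choice of the gene.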
